A study of Homo sapiens with 24 samples.

Results

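IL32, CXCL14, CCL2 and SAA1 are 4 of the 12547 endogenous genes measured in this study of RNA stability. They encode a cytokine, a pair of chemokines and an acute-phase protein, and were picked by symbol because their signal differs between cells that carry different QKI7 add-back constructs. Since those differences chose the genes, every value that compares add-back cells with each other or with empty-vector QKI-targeted cells is given as a description with no test. Tests are limited to QKI-targeted against control cells and to changes over time. Each of these genes had a value in all 24 libraries, and all 4 passed the filter on low values (signal of 1 or more in 2 or more libraries), which removed 0 genes.

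PolyA RNA came from U2OS, a human osteosarcoma cell line, sampled from 4 genotypes at 0, 4 and 8 h; each of these 12 groups had 2 libraries, 24 in all. QKI7-WT cells carried a guide against QKI and intact QKI7; QKI7-△KH cells carried the same guide and QKI7 without its KH domain; sgQKI+EV cells carried that guide with an empty vector (EV); and sgNS+EV control cells carried the sgNS guide with an empty vector. All cells received 5 µg/mL actinomycin D, which blocks transcription, together with 200 µM sodium arsenite, an oxidative stressor, for the stated hours, so no later time point is free of arsenite. Whether the lines are pools or clones, which promoter drives the add-back, and whether the 2 libraries of a group are separate cultures are not given in the sources used here, so p-values measure only the spread between these libraries, which may be technical.

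QKI is a STAR-family RNA-binding protein whose KH domain contacts RNA, with a preference for sequences built around ACUAAY, and its isoforms differ at their carboxyl ends. The transcripts described here belong to the inflammatory secretome. IL32 is a cytokine that human lymphocytes, epithelial and stromal cells make in response to inflammatory stimuli. CXCL14 is a chemokine that many epithelia make without a stimulus. CCL2 attracts monocytes through the receptor CCR2, is a textbook NF-kB target, and has a short-lived mRNA in many cells; bone-forming cells are among its sources. SAA1 is a lipid-binding acute-phase protein made mostly by the liver after stimulation with interleukins.

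The transcripts were searched for ACTAAC and ACTAAT, the DNA letters of the QKI motif, and for ATTTA, the core of AU-rich elements that mark many short-lived mRNAs. The search covered the sense strand of 1 representative GENCODE 29 transcript per gene (GRCh38). Sites are shown with the motif in capitals because they are the only matches in the searched transcripts besides 1 further ATTTA in the annotated 5′ UTR of CXCL14. The first line is from the 5′ UTR of CCL2, and the other lines are from the 3′ UTRs of CCL2 and CXCL14.
CCL2 ACTAAC, chr17:34255285-34255314, + strand: gagaggctgagACTAACccagaaacatcca
CCL2 ATTTA, chr17:34256951-34256980, + strand: atgttaattcttATTTAagttattgatgtt
CXCL14 ATTTA, chr5:135571099-135571128, − strand: cacaggttcaatATTTAatgcttcagaagc
The representative transcripts of IL32 (1272 bases) and SAA1 (675 bases) held none of these letters. ACTAAC or ACTAAT was present in 11.2% of genes with a transcript within 20% of the length of CCL2 (741 bases), and ATTTA in 37.8% of them. For CXCL14 (1971 bases), ATTTA was present in 68.9% of genes of like length, and ACTAAC or ACTAAT, which it lacked, in 27.2%. Among genes of like length to IL32, 19.9% had ACTAAC or ACTAAT and 54.8% had ATTTA. For SAA1 these shares were 8.17% and 36.5%. A match is a description of letters and was not shown to be bound.

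IL32 lies on chromosome 16 (3065297 to 3082192, + strand) with 35 annotated transcripts, CXCL14 on chromosome 5 (135570679 to 135579279, − strand), CCL2 on chromosome 17 (34255218 to 34257203, + strand) and SAA1 on chromosome 11 (18266174 to 18269977, + strand). CXCL14 overlaps the antisense gene AC034206.1 and SLC25A48, and IL32 overlaps the antisense-strand lincRNA AC108134.3; the kit keeps strand, but whether counting used it is not given in the sources used here. SAA1 is uncertain for another reason: its coding sequence is identical to that of SAA2 at 358 of 369 bases (97.0%), so reads of the 2 genes may have been divided between them by the authors' counting. SAA2 was not among the measured genes, so such a division could not be looked at.

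Values are the deposited signal, scaled by the authors to spike-in RNA and linear. The summed endogenous signal ran from 690431 to 1367862 per library and was lower at each later time in each genotype, whereas the 38 spike-in rows summed to between 11485 and 11940. Read depth is unknown, and how the spike-in was dosed is not given in the sources used here, so a shift shared by most genes has no known meaning per cell. QKI7-△KH libraries at 0 h had the highest summed signal of the 12 groups (1286950 ± 114426, SD, n = 2), and the QKI7-WT libraries at 4 h were the least alike pair (r = 0.9889 across genes, against up to 0.9982). Of 10 bone and mesenchymal markers, 7 were measured, with a summed signal of 5198.3 to 6265.8 at 0 h across all genotypes. Of 9 blood cell markers only CD68 was measured (13.3 to 19.4 at 0 h), and no endothelial marker was. The labels call the cells epithelial, and of 5 epithelial markers EPCAM, KRT8 and KRT18 were measured; of 4 hepatocyte markers only SERPINA1 was. The part of these markers in any result was not tested.

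The targeted gene, QKI, had a signal of 60.4 and 46.3 in QKI7-WT, 47.6 and 50.2 in QKI7-△KH, 36.0 and 32.7 in sgQKI+EV, and 60.0 and 48.2 in sgNS+EV libraries at 0 h. At 4 h it was 50.5 and 32.8, 24.7 and 22.6, 15.3 and 17.1, and 54.0 and 50.1 in the same order of genotypes. At 8 h it was 18.7 and 18.0, 17.8 and 19.1, 10.6 and 11.7, and 24.1 and 21.9. The sgQKI+EV libraries were the lowest at each time, and the row does not separate the cell's own QKI from the add-back. QKI was lower in sgQKI+EV than in sgNS+EV by log2 −0.63 ± 0.14 (SE) at 0 h (limma, adjusted p = 0.0264), −1.62 at 4 h (7.51e-07) and −0.98 at 8 h (9.51e-05); the 0 h call was lost when sgNS+EV replicate 1 (adjusted p = 0.3), sgQKI+EV replicate 1 (0.0777) or sgQKI+EV replicate 2 (0.357) was left out, and on library totals (0.0781).

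IL32 had its highest signal in QKI7-WT cells and its lowest in sgQKI+EV cells at all 3 times. At 0 h its signal was 18.5 and 19.7 in QKI7-WT, 16.6 and 14.9 in QKI7-△KH, 10.9 and 8.64 in sgQKI+EV, and 14.8 and 14.1 in sgNS+EV libraries. No 2 genotypes overlapped at this time, but the share of all genes with 4 separated genotypes was not counted. At 4 h it was 21.0 and 19.0 in QKI7-WT, 14.2 and 14.8 in QKI7-△KH, 11.5 and 10.9 in sgQKI+EV, and 12.7 and 11.4 in sgNS+EV libraries. Here sgQKI+EV and sgNS+EV libraries overlapped, and the QKI7-WT libraries stood highest. At 8 h it was 14.7 and 12.1 in QKI7-WT, 11 and 11.9 in QKI7-△KH, 7.9 and 7.3 in sgQKI+EV, and 9.55 and 9.27 in sgNS+EV libraries. The order was again QKI7-WT, QKI7-△KH, sgNS+EV, sgQKI+EV, with no overlap between neighbours. At 8 h QKI7-WT lay above QKI7-△KH without overlap for 2.18% of all genes, and sgQKI+EV below sgNS+EV for 70.6%. The share for QKI7-△KH above sgNS+EV was not counted.

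CXCL14 ran the other way for intact QKI7: its signal was lowest in QKI7-WT cells and highest in QKI7-△KH cells. At 0 h CXCL14 stood at 97.4 and 102.5 in QKI7-WT, 176.8 and 158.7 in QKI7-△KH, 138.9 and 149.8 in sgQKI+EV, and 118.5 and 123.3 in sgNS+EV libraries. The 4 genotypes were fully separated, again without a count of such genes over the whole series. At 4 h the values were 79.3 and 70.8 in QKI7-WT, 109.5 and 116.6 in QKI7-△KH, 104.3 and 93.4 in sgQKI+EV, and 78.7 and 75.0 in sgNS+EV libraries. QKI7-WT and sgNS+EV overlapped at 4 h. At 8 h the values were 44.2 and 39.2 in QKI7-WT, 77.5 and 82.1 in QKI7-△KH, 58.0 and 55.9 in sgQKI+EV, and 51.4 and 52.6 in sgNS+EV libraries. The order QKI7-△KH, sgQKI+EV, sgNS+EV, QKI7-WT held at all 3 times.

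SAA1, the acute-phase member, was highest in QKI7-△KH cells and lowest in sgNS+EV cells throughout. SAA1 at 0 h gave 18.8 and 17.5 in QKI7-WT, 30.7 and 24.2 in QKI7-△KH, 12.8 and 12.8 in sgQKI+EV, and 8.96 and 7.75 in sgNS+EV libraries. At 4 h it gave 14.2 and 14.6 in QKI7-WT, 22.6 and 23.1 in QKI7-△KH, 13.2 and 13.0 in sgQKI+EV, and 11.2 and 8.45 in sgNS+EV libraries. At 8 h it gave 13.8 and 11.8 in QKI7-WT, 18.6 and 19.5 in QKI7-△KH, 7.67 and 9.19 in sgQKI+EV, and 5.59 and 7.55 in sgNS+EV libraries. No neighbouring genotypes overlapped at any time, and each of the 3 genotypes with the QKI guide lay above the sgNS+EV libraries. Among all genes at 0 h, QKI7-WT lay below QKI7-△KH without overlap for 54.6% and above sgQKI+EV for 21.6%. Libraries of sgQKI+EV lay above those of sgNS+EV for 9.99%. In the same order of comparisons, the shares were 6.99%, 52.0% and 16.6% at 4 h and 61.6%, 49.5% and 4.43% at 8 h. No such share was counted for QKI7-WT or QKI7-△KH against sgNS+EV. The share of all genes with the full order separated was not counted.

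CCL2 was the member whose order changed with time. At 0 h CCL2 read 35.4 and 30.1 in QKI7-WT, 42.3 and 46.8 in QKI7-△KH, 29.3 and 29.9 in sgQKI+EV, and 23.8 and 23.6 in sgNS+EV libraries, an order it shared with SAA1. At 4 h it read 24.3 and 22.9 in QKI7-WT, 20.2 and 20.2 in QKI7-△KH, 16.6 and 16.2 in sgQKI+EV, and 17.6 and 16.5 in sgNS+EV libraries. QKI7-WT was then highest, and sgQKI+EV overlapped sgNS+EV. At 8 h it read 8.13 and 7.71 in QKI7-WT, 11.2 and 13.8 in QKI7-△KH, 9.63 and 9.38 in sgQKI+EV, and 6.68 and 7.87 in sgNS+EV libraries, with QKI7-WT and sgNS+EV overlapping. Over all genes, 137 of 12547 (1.09%) kept a single order of the 4 genotype means at 0, 4 and 8 h, as IL32, CXCL14 and SAA1 did. The choice of the genes in part fixes that order, so nothing is read from it.

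**Figure D1:**
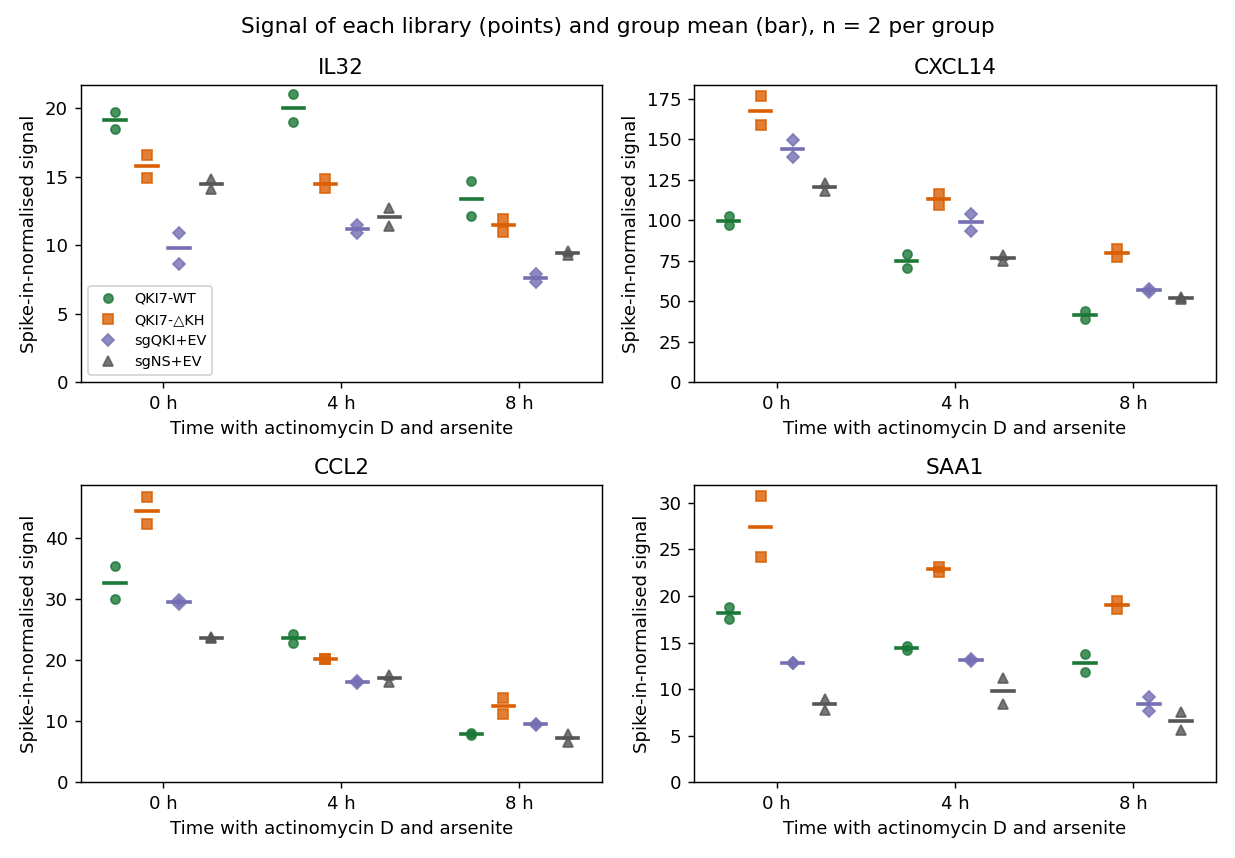
Spike-in-normalised signal (linear axes from 0) of IL32, CXCL14, CCL2 and SAA1 against hours with actinomycin D and arsenite; points are libraries and bars are means of the 2 libraries of a group, with QKI7-WT, QKI7-△KH, sgQKI+EV and sgNS+EV from left to right. IL32 is highest in QKI7-WT cells, CXCL14 and SAA1 are highest in QKI7-△KH cells at each time, and CCL2 changes its order.

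Intact QKI7 and the construct without the KH domain were therefore set side by side, as a description. Differences are log2 of signal plus 1 with the SE of the limma fit. At 0 h, QKI7-WT minus QKI7-△KH was 0.26 ± 0.11 for IL32, −0.74 ± 0.08 for CXCL14, −0.43 ± 0.10 for CCL2 and −0.56 ± 0.13 for SAA1, against a median of −0.15 over all genes. IL32 was the only member above that median at 0 h. Libraries of the 2 genotypes did not overlap for any member, higher in QKI7-WT for IL32 (1.53% of all genes) and lower for the other members (54.6% of all genes). Nor did they overlap later, when 35.9% of all genes were separated as higher and 6.99% as lower at 4 h, and 2.18% and 61.6% at 8 h. At 4 h the same difference was 0.43 for IL32, −0.59 for CXCL14, 0.22 for CCL2 and −0.63 for SAA1 (all-gene median 0.09). At 8 h it was 0.20, −0.92, −0.59 and −0.55 in that order of genes (median −0.15). CCL2 was thus higher in QKI7-WT only at 4 h, while the other members kept their sign.

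Against sgQKI+EV cells at 0 h, IL32 and SAA1 were higher with either construct, and CXCL14 was lower with intact QKI7. QKI7-WT minus sgQKI+EV at 0 h was 0.90 ± 0.11 for IL32 (1.87-fold of signal plus 1), −0.53 ± 0.08 for CXCL14, 0.14 ± 0.10 for CCL2 and 0.47 ± 0.13 for SAA1, with an all-gene median of 0.03. Separate libraries in that comparison were seen for 21.6% of all genes in the higher and 6.89% in the lower direction. QKI7-△KH minus sgQKI+EV at 0 h was 0.64 ± 0.11 for IL32, 0.21 ± 0.08 for CXCL14, 0.57 ± 0.10 for CCL2 and 1.04 ± 0.13 for SAA1 (2.05-fold). The background is high there: the all-gene median was 0.19 and 69.4% of all genes had every QKI7-△KH library above every sgQKI+EV library. On library totals the CXCL14 value turned to −0.04, so its direction in QKI7-△KH against sgQKI+EV cells depends on the scaling. Both add-back comparisons use the same sgQKI+EV libraries.

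At 4 h, QKI7-WT minus sgQKI+EV was 0.78 for IL32, −0.39 for CXCL14, 0.50 for CCL2 and 0.12 for SAA1 (median 0.20). The SAA1 value turned to −0.12 on library totals and to −0.10 after quantile normalisation. At 8 h it was 0.74, −0.44, −0.24 and 0.55 in the same order of genes (median 0.09). QKI7-△KH minus sgQKI+EV stayed above 0 for all members, with 0.35, 0.19, 0.28 and 0.76 at 4 h (median 0.11) and 0.53, 0.48, 0.35 and 1.09 at 8 h (median 0.25). SAA1 had the largest of these values at each time. No member overlapped in either comparison at 4 or 8 h, but QKI7-WT libraries were separated above sgQKI+EV libraries for 52.0% of all genes at 4 h and 49.5% at 8 h (below for 3.26% and 6.18%), and QKI7-△KH libraries for 48.7% and 80.9%.

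**Figure D2:**
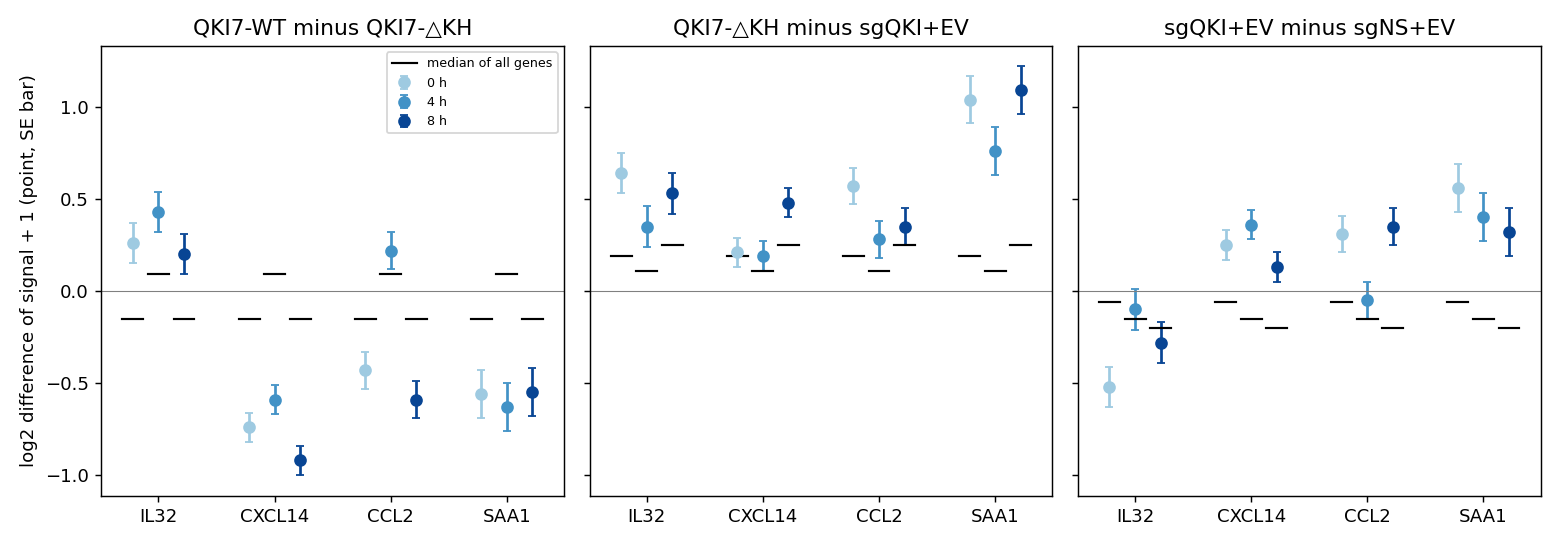
Difference in log2 of signal plus 1 for each gene at 0, 4 and 8 h (points, bars are the SE of the limma fit), for QKI7-WT minus QKI7-△KH, QKI7-△KH minus sgQKI+EV and sgQKI+EV minus sgNS+EV; black ticks mark the median of all 12547 genes at that time. CXCL14 and SAA1 lie below 0 in the first panel at all 3 times, all members lie above 0 in the second (CXCL14 at 0 h is −0.04 on library totals), and IL32 is the only member below 0 at each time in the third (0.15 at 4 h after quantile normalisation).

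The QKI guide with no add-back was tested as sgQKI+EV against sgNS+EV. The genes were chosen across all 24 libraries for differences between add-back states. The sgQKI+EV libraries are part of those comparisons, and the sgNS+EV libraries are not. The p-values of the 4 genes here, and the count of them called, are therefore not independent of that choice. Nothing is read from that count beside the share of all genes. At 0 h IL32 was lower and SAA1 was higher in sgQKI+EV cells. IL32 averaged 9.79 ± 1.6 in sgQKI+EV and 14.4 ± 0.48 in sgNS+EV libraries (SD, n = 2 each), a log2 difference of −0.52 ± 0.11 (adjusted p = 0.0135). SAA1 averaged 12.8 ± 0.037 in sgQKI+EV and 8.36 ± 0.86 in sgNS+EV libraries, a difference of 0.56 ± 0.13 (adjusted p = 0.0328). These 2 of 4 calls stand beside 195 of 12547 genes called (1.55%), of which 23 were higher (0.183%) and 172 lower (1.37%); on library totals the split was 930 higher and 102 lower, and after quantile normalisation 323 higher and 448 lower. CXCL14 (0.25 ± 0.08, adjusted p = 0.111) and CCL2 (0.31 ± 0.10, adjusted p = 0.114) did not pass, although every sgQKI+EV library lay above every sgNS+EV library for either, as for 9.99% of all genes (38.4% lay below, as IL32 did).

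These 0 h calls rest on few libraries. The SAA1 call was lost when any 1 of the 4 libraries was left out (differences 0.47 to 0.65, adjusted p 0.0984 to 0.347). The IL32 call was lost without sgNS+EV replicate 1 (adjusted p = 0.157), sgNS+EV replicate 2 (0.105) or sgQKI+EV replicate 2 (0.375). CXCL14 and CCL2 passed as well on library totals (0.43 and 0.47, with an all-gene median of 0.11 in place of −0.06), after quantile normalisation (0.37 and 0.39) and in a fit on the compared groups only.

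At 4 h CXCL14 was higher in sgQKI+EV cells by 0.36 ± 0.08 (adjusted p = 0.00178) and SAA1 by 0.40 ± 0.13 (0.0214), where 40.8% of all genes were called, 6.74% higher and 34.0% lower. CXCL14 passed with each library left out in turn (0.28 to 0.44). SAA1 did not pass without sgNS+EV replicate 2 (0.22, adjusted p = 0.282), sgQKI+EV replicate 1 (0.0833) or sgQKI+EV replicate 2 (0.0762). IL32 (−0.10, adjusted p = 0.471) and CCL2 (−0.05, 0.697) did not pass at 4 h. At 8 h CCL2 was higher by 0.35 ± 0.10 (adjusted p = 0.00928), where 34.3% of all genes were called, 0.287% higher and 34.0% lower. That call was lost without sgNS+EV replicate 1 (0.24, adjusted p = 0.125) or sgQKI+EV replicate 1 (0.0577). IL32 was at −0.28 (adjusted p = 0.0502), CXCL14 at 0.13 (0.217) and SAA1 at 0.32 (0.0633). Each of these 3 misses depended on the setting. CXCL14 passed on library totals (0.40, adjusted p = 0.000929) and after quantile normalisation (0.39, 0.000561), and SAA1 passed on library totals (0.58, 0.00981), after quantile normalisation (0.49, 0.0287), on the compared groups only (0.0402) and without sgNS+EV replicate 2 (0.51, 0.0288). IL32 passed with a pseudocount of 0.1 (−0.31, 0.043), with the replicate block (0.0312) and on the compared groups only (0.00767). The all-gene median was −0.15 at 4 h and −0.20 at 8 h. Libraries were separated as higher for 16.6% of all genes at 4 h, as for CXCL14 and SAA1, and for 4.43% at 8 h, as for CXCL14, CCL2 and SAA1; they were separated as lower for 52.3% at 4 h and 70.6% at 8 h, as for IL32 at 8 h. Whether a member's difference changed with time was tested only as the decay differences below.

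All 4 transcripts fell over 8 h in control cells on the spike-in scale, where 88.2% of all genes were called lower. The scale decides much of that background: 1616 genes were called higher and 6130 lower on library totals, and 4162 higher and 3379 lower after quantile normalisation. CCL2 fell most: it averaged 7.28 ± 0.84 at 8 h against 23.7 ± 0.16 at 0 h in sgNS+EV libraries (SD, n = 2 each), a log2 change of −1.58 ± 0.10 (adjusted p = 4.39e-12). CXCL14 averaged 52.0 ± 0.88 at 8 h against 120.9 ± 3.4 at 0 h, a change of −1.20 ± 0.08 (1.37e-11). IL32 averaged 9.41 ± 0.20 at 8 h against 14.4 ± 0.48 at 0 h, a change of −0.57 ± 0.11 (5.12e-05). SAA1 averaged 6.57 ± 1.4 at 8 h against 8.36 ± 0.86 at 0 h, a change of −0.31 ± 0.13 (0.0316). The all-gene median was −0.70, so CCL2 and CXCL14 fell by more than the median gene, and IL32 and SAA1 by less. On library totals IL32 was at −0.09 (adjusted p = 0.315) and SAA1 at 0.14, and after quantile normalisation they were at 0.33 and 0.61, so the direction of both depends on the scaling. SAA1 also lost its call without sgNS+EV replicate 1 at 0 h (−0.22, adjusted p = 0.204) or at 8 h (−0.13, adjusted p = 0.437).

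The same split was seen in the other genotypes on the spike-in scale. From 0 to 8 h CCL2 changed by −1.92 in QKI7-WT, −1.76 in QKI7-△KH and −1.54 in sgQKI+EV cells, and CXCL14 by −1.24, −1.06 and −1.33. IL32 changed by −0.49, −0.43 and −0.32, and SAA1 by −0.48, −0.49 and −0.55, against all-gene medians of −0.77, −0.77 and −0.82. All 12 values passed, beside 90.0% of all genes called lower in QKI7-WT, 90.6% in QKI7-△KH and 90.5% in sgQKI+EV cells, and the libraries of these genotypes took part in choosing the genes. Each IL32 and SAA1 value among them was above 0 on library totals (0.01 to 0.24) and after quantile normalisation (0.41 to 0.71). The IL32 call in sgQKI+EV cells was lost without replicate 1 at 0 h (−0.17, adjusted p = 0.198) or replicate 2 at 8 h (0.0681), and the SAA1 call in QKI7-△KH cells without replicate 1 at 0 h (0.0549).

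From 0 to 4 h on the spike-in scale IL32 did not pass in any genotype (0.06 in QKI7-WT, −0.11 in QKI7-△KH, 0.18 in sgQKI+EV and −0.24 in sgNS+EV cells), where 42.9%, 73.6%, 63.8% and 59.8% of all genes were called lower. Early calls for IL32 appeared under other settings: as higher in sgQKI+EV cells on library totals (0.38, adjusted p = 0.000383), after quantile normalisation (0.76, 1.22e-07) and without replicate 1 at 0 h (0.34, 0.0238), as higher after quantile normalisation in QKI7-WT (0.41, 0.000131) and QKI7-△KH cells (0.54, 5.86e-06), and as lower in sgNS+EV cells with the replicate block (0.0396) and on the compared groups only (0.0317). From 4 to 8 h it passed in all genotypes, at −0.55, −0.32, −0.50 and −0.33, on the spike-in scale, beside 83.7%, 58.2%, 79.2% and 64.9% of all genes called lower; on library totals it was at −0.09 in QKI7-WT (adjusted p = 0.365), −0.04 in QKI7-△KH (0.785) and −0.14 in sgQKI+EV cells (0.202), and after quantile normalisation at 0.06 in QKI7-WT and 0.19 in sgNS+EV cells. Left-out libraries ended the IL32 call in QKI7-△KH cells (replicate 2 at 4 h, adjusted p = 0.0848; replicate 1 at 8 h, 0.122) and in sgNS+EV cells (replicate 1 at 4 h, 0.105; replicate 2 at 8 h, 0.0541). For SAA1 the 0 to 4 h changes were −0.32, −0.24, 0.03 and 0.20 in the same order of genotypes, and none passed on the spike-in scale with all libraries in the fit across all groups. It passed as higher in sgNS+EV cells on library totals (0.52, adjusted p = 0.00311), after quantile normalisation (0.59, 0.00184) and without replicate 2 at 4 h (0.38, 0.0443), and after quantile normalisation in sgQKI+EV (0.61, 0.000944) and QKI7-△KH cells (0.34, 0.036). In QKI7-△KH cells it passed as lower on the compared groups only (0.00727) and without replicate 2 at 0 h (−0.41, 0.0223). From 4 to 8 h it passed in sgQKI+EV (−0.59) and sgNS+EV cells (−0.51) and not in QKI7-WT (−0.16) or QKI7-△KH cells (−0.25), a contrast not tested as a difference; the sgNS+EV call was lost without replicate 1 at 4 h (adjusted p = 0.0687) or at 8 h (0.0738), and the sgQKI+EV value was −0.22 on library totals (0.216). Over 4 to 8 h SAA1 passed as lower in QKI7-△KH cells on the compared groups only (adjusted p = 0.0033). It passed as higher in QKI7-WT cells after quantile normalisation (0.43, 0.0176). CCL2 and CXCL14 passed as lower in both intervals in every genotype on the spike-in scale. Of these calls, CCL2 over 0 to 4 h was lost in sgNS+EV cells on library totals (−0.10, 0.457) and after quantile normalisation (−0.10, 0.368) and in QKI7-WT cells after quantile normalisation (−0.17, 0.134), and CXCL14 over 4 to 8 h was lost in QKI7-△KH cells after quantile normalisation (−0.16, 0.0582).

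As a share of the 0 h mean, CCL2 stood at 24.2% in QKI7-WT, 28.0% in QKI7-△KH, 32.1% in sgQKI+EV and 30.7% in sgNS+EV cells at 8 h. This corresponds to half-lives of 3.91, 4.36, 4.88 and 4.69 h if loss is exponential between the group means. Taken by interval, 0 to 4 h then 4 to 8 h, they were 8.48 and 2.54 h in QKI7-WT and 3.51 and 5.76 h in QKI7-△KH. They were 4.7 and 5.08 h in sgQKI+EV and 8.4 and 3.26 h in sgNS+EV cells. The single values here and for CXCL14 below thus describe only the 8 h end point on the spike-in scale. CXCL14 stood at 41.7%, 47.6%, 39.4% and 43.0% (half-lives of 6.35, 7.46, 5.96 and 6.57 h), and the median gene at 55.2%, 55.9%, 53.3% and 58.5%. IL32 stood at 70.0%, 72.6%, 77.7% and 65.3%, and SAA1 at 70.3%, 69.4%, 65.9% and 78.7%. CCL2 thus kept less signal than all but 4.53% of genes in QKI7-WT, 6.22% in QKI7-△KH, 12.3% in sgQKI+EV and 7.26% in sgNS+EV cells.

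The share of CCL2 left at 4 h also differed between genotypes, as did that of the median gene. Differences among the add-back cells were not tested. At 4 h 72.1% of its 0 h signal was left in QKI7-WT, 45.3% in QKI7-△KH, 55.4% in sgQKI+EV and 71.9% in sgNS+EV cells, while the median gene was at 84.5%, 69.7%, 74.6% and 79.2%. Dividing the highest 4 h library by the lowest 0 h library, and the lowest by the highest, gave 64.7 to 80.8% in QKI7-WT, 43.1 to 47.8% in QKI7-△KH, 54.1 to 56.8% in sgQKI+EV and 69.3 to 74.5% in sgNS+EV cells. The 0 to 4 h change in sgQKI+EV minus that in sgNS+EV cells was −0.36 ± 0.14 for CCL2 (adjusted p = 0.0807), which passed on library totals (−0.51, 0.0115) and on the compared groups only (0.0398).

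**Figure D3:**
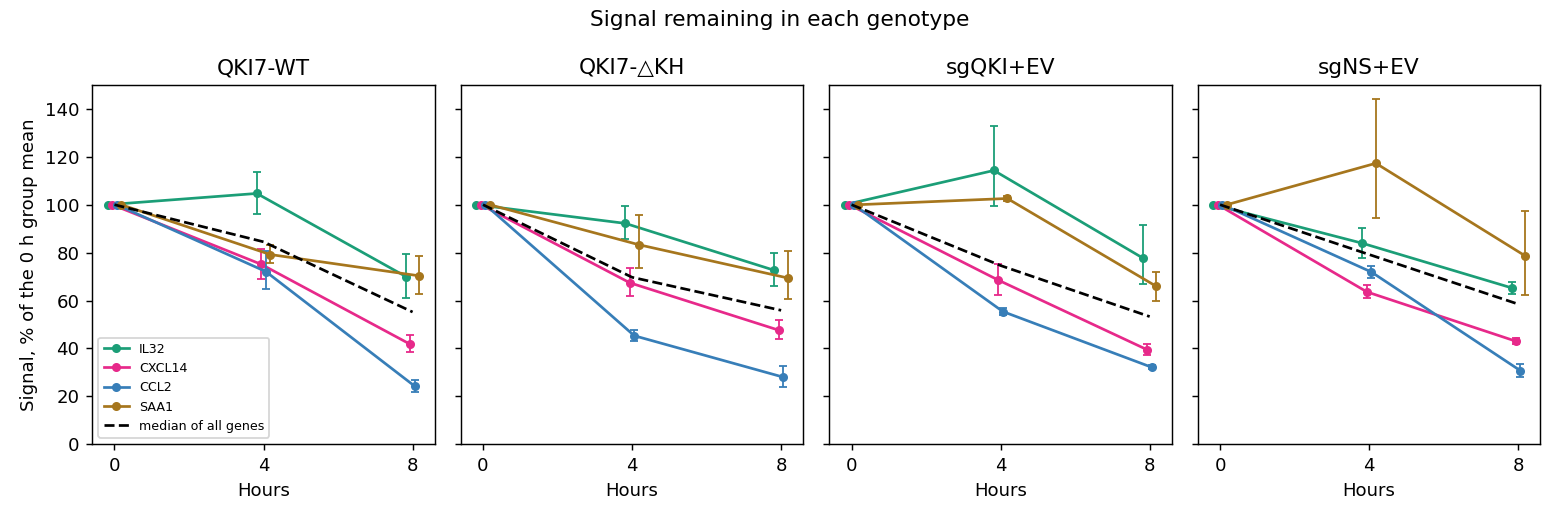
Signal at 0, 4 and 8 h as a percent of the 0 h group mean in each genotype; points are ratios of group means, bars run from the lowest to the highest ratio of single libraries, and the dashed line is the median of all genes. CCL2 and CXCL14 lie below the dashed line and IL32 and SAA1 above it at 8 h in every genotype on the spike-in scale.

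Whether the loss itself differed in QKI-targeted cells was tested as the change in sgQKI+EV minus the change in sgNS+EV cells. The value is positive where sgQKI+EV cells lost less. Over 8 h the difference was 0.25 ± 0.15 for IL32 (adjusted p = 0.416), −0.12 ± 0.11 for CXCL14 (0.602), 0.04 ± 0.14 for CCL2 (0.913) and −0.24 ± 0.19 for SAA1 (0.543). None passed, beside 85 of 12547 genes (0.677%). Over the first 4 h it was 0.42 ± 0.15 for IL32 (adjusted p = 0.0684), 0.10 ± 0.11 for CXCL14 (0.544), −0.36 ± 0.14 for CCL2 (0.0807) and −0.16 ± 0.19 for SAA1 (0.571), where 10.7% of all genes were called. The IL32 difference passed on library totals (0.27, adjusted p = 0.0488), after quantile normalisation (0.61, 0.00445), with the replicate block (0.0439) and on the compared groups only (0.0371), so it and the CCL2 difference depend on the setting. A value that misses the threshold at these errors does not show equal loss.

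The members did not vary as a block. With the mean of each time point subtracted, Pearson r between CCL2 and SAA1 over 24 libraries was 0.781, and between IL32 and CXCL14 it was −0.299 (−0.631 on library totals). The other pairs lay between 0.364 and 0.502; the lowest of them, IL32 with CCL2, was at 0.116 on library totals. These points share genotypes and spike-in scaling, and the values are descriptive.

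Of 10558 other genes with a mean signal of at least 5, those with the pattern most like IL32 by the same r were TGFBI (0.937), an extracellular matrix protein, FNTA (0.919), a prenyltransferase subunit, and PEA15 (0.911), a signalling adaptor. TGFBI averaged 53.8 in QKI7-WT, 44.7 in QKI7-△KH, 36.1 in sgQKI+EV and 39.9 in sgNS+EV libraries at 0 h, and it ranked 1st for IL32 on library totals too (r = 0.873). FNTA dropped to rank 36 there (r = 0.553). For CXCL14 they were MYL2 (0.923), a myosin light chain, and ECM1 (0.92) and IGFBP7 (0.92), both secreted proteins. MYL2 averaged 25.4, 50.3, 31.5 and 31.9 in the same order of genotypes, so it too was lowest in QKI7-WT and highest in QKI7-△KH cells. For CCL2 they were IDH3A (0.899), SDPR (0.894) and ZWILCH (0.887), and for SAA1 TNNC1 (0.902), ZNF542P (0.901) and BEX1 (0.896). Ranks on library totals, in the orders given, were 12, 7 and 5 for CXCL14, 11, 24 and 14 for CCL2, and 3, 7 and 2 for SAA1. TNNC1, a troponin subunit, averaged 96.4, 136.8, 83.7 and 80.4 at 0 h.

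Other genes of these pathways give the context. Of 52 listed secreted cytokines and chemokines other than the members, 13 were measured, and 3 passed in sgQKI+EV against sgNS+EV cells at 0 h, all lower, where 1.37% of all genes were called lower; on library totals 1 was lower and 1 higher. CCL26, an eosinophil-attracting chemokine, averaged 53.4 ± 2.3 in sgQKI+EV and 76.6 ± 3.7 in sgNS+EV libraries (−0.51 ± 0.09, adjusted p = 0.0024). GDF15, a stress-induced TGF-beta family member, averaged 16.1 ± 1.1 in sgQKI+EV and 27.9 ± 0.18 in sgNS+EV libraries (−0.75, 0.0447). IL18, an inflammasome-processed cytokine, averaged 245.9 ± 7.0 in sgQKI+EV and 314.3 ± 13.0 in sgNS+EV libraries (−0.35, 0.0281). With a library left out, 0 or 1 of these passed; CCL26 was the more stable, losing its call without sgNS+EV replicate 1 or sgQKI+EV replicate 2, while GDF15 and IL18 lost theirs without any of the 4. GDF15 also did not pass on library totals (adjusted p = 0.0743), after quantile normalisation (0.0624) or with a pseudocount of 0.1 (0.0959), nor IL18 on library totals (0.107). The list's median was −0.10, against −0.06 over all genes.

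Among 41 measured genes of the NF-kB, STAT3 and C/EBP pathway (of 48), 2 were lower in sgQKI+EV cells at 0 h and none higher, beside the same 1.37% of all genes; on library totals 1 was lower and 2 were higher. TRADD, the adaptor of the TNF receptor, averaged 4.84 ± 0.95 in sgQKI+EV and 11.5 ± 0.92 in sgNS+EV libraries (−1.10 ± 0.18, adjusted p = 0.00209). SOD2, a mitochondrial superoxide dismutase and NF-kB target, averaged 35.1 ± 1.7 and 45.9 ± 0.62 in the same 2 groups (−0.38, 0.0117). Both lost their calls without sgNS+EV replicate 1 (0.0519 and 0.0977) or sgQKI+EV replicate 2 (0.0927 and 0.265), and SOD2 also without sgNS+EV replicate 2 (0.136) and on library totals (−0.20, 0.0754). None of 7 measured acute-phase genes (of 25) and none of 14 measured receptors (of 29) passed by limma in this comparison. On library totals 1 receptor was higher, and after quantile normalisation 1 receptor was higher and 1 receptor and 1 acute-phase gene were lower. A fit on the compared groups only called 4 receptors, 2 acute-phase genes and 6 pathway genes, all lower.

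In QKI7-WT against QKI7-△KH cells at 0 h, where 3.71% of all genes were called lower and 0.0478% higher, the calls in the cytokine, acute-phase and receptor lists were all lower. CCL26 averaged 46.7 ± 5.0 in QKI7-WT and 80.6 ± 2.3 in QKI7-△KH libraries (−0.78 ± 0.09, adjusted p = 3.13e-05), and passed with each library left out in turn (−0.88 to −0.67). LIF, an interleukin-6 family cytokine, averaged 24.8 ± 0.39 in QKI7-WT and 35.4 ± 0.57 in QKI7-△KH libraries (−0.49, 0.002), and lost its call only without QKI7-△KH replicate 1 (0.0597). IL18 (−0.41), A2M (−0.54), SERPINA1 (−0.29) and OSMR (−0.25) also passed. IL18 and A2M lost their calls without QKI7-WT replicate 1 or QKI7-△KH replicate 1, and SERPINA1 and OSMR without any of the 4 libraries; SERPINA1, OSMR and IL18 did not pass on library totals. The counts were 3 of 13 cytokines, 2 of 7 acute-phase genes and 1 of 14 receptors.

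QKI7-△KH minus sgQKI+EV at 0 h gave calls that were all higher: 3 of 13 cytokines and chemokines, 1 of 7 acute-phase genes, 3 of 14 receptors and 6 of 41 pathway genes, against 12.6% of all genes called higher. Both the calls and their direction depend on the scaling: library totals gave 2 receptors lower and none in the other lists, and quantile normalisation gave 1 cytokine higher and 1 receptor lower. The 6 pathway calls fell to 0 without QKI7-△KH replicate 1 or either sgQKI+EV library, and the cytokine calls to 1, the acute-phase calls to 0 and the receptor calls to 0 or 1 without any of the same 3 libraries. QKI7-WT minus sgQKI+EV at 0 h gave none in any of the 4 lists by limma on the spike-in scale, against 0.0877% of all genes. In that comparison 1 acute-phase gene was lower on library totals, and 1 was lower after quantile normalisation.

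Over 8 h in sgNS+EV cells most listed genes lost signal on the spike-in scale, as did the bulk of the transcriptome. On the spike-in scale 10 of 13 cytokines and chemokines, 7 of 7 acute-phase genes, 14 of 14 receptors and 40 of 41 pathway genes were lower, beside the 88.2% given above. NFKBIA, the NF-kB inhibitor, averaged 1.95 ± 0.40 at 8 h against 90.3 ± 0.58 at 0 h (−4.96 ± 0.15, adjusted p = 1.18e-16), and SOCS3, the STAT3 feedback inhibitor, 1.43 and 1.56 in the libraries at 8 h against 38.4 and 38.9 at 0 h (−3.99 ± 0.13). CEBPB and REL changed by −2.07 each. Among cytokines TNFSF9 (−2.71), GDF15 (−2.54), CX3CL1 (−1.87) and LIF (−1.41) fell most, and CCL2 at −1.58 lies between CX3CL1 and LIF. Receptors had a median of −1.44, led by TLR4 (−2.35), IFNGR2 (−2.18), TNFRSF1A (−2.09) and IL1RAP (−2.03). The acute-phase list had a median of −0.65, with C3 at −0.95, A2M at −0.88, SERPINA3 at −0.75 and C1R at −0.65. Its direction depends on the scaling, with 2 lower and 1 higher on library totals and 2 higher after quantile normalisation. The pathway list gave 27 lower and 1 higher on library totals and 16 lower and 8 higher after quantile normalisation. The cytokine list gave 9 lower and 2 higher on library totals and 5 lower and 3 higher after quantile normalisation. For the receptors it was 13 lower on library totals, and 12 lower and 1 higher after quantile normalisation.

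**Figure D4:**
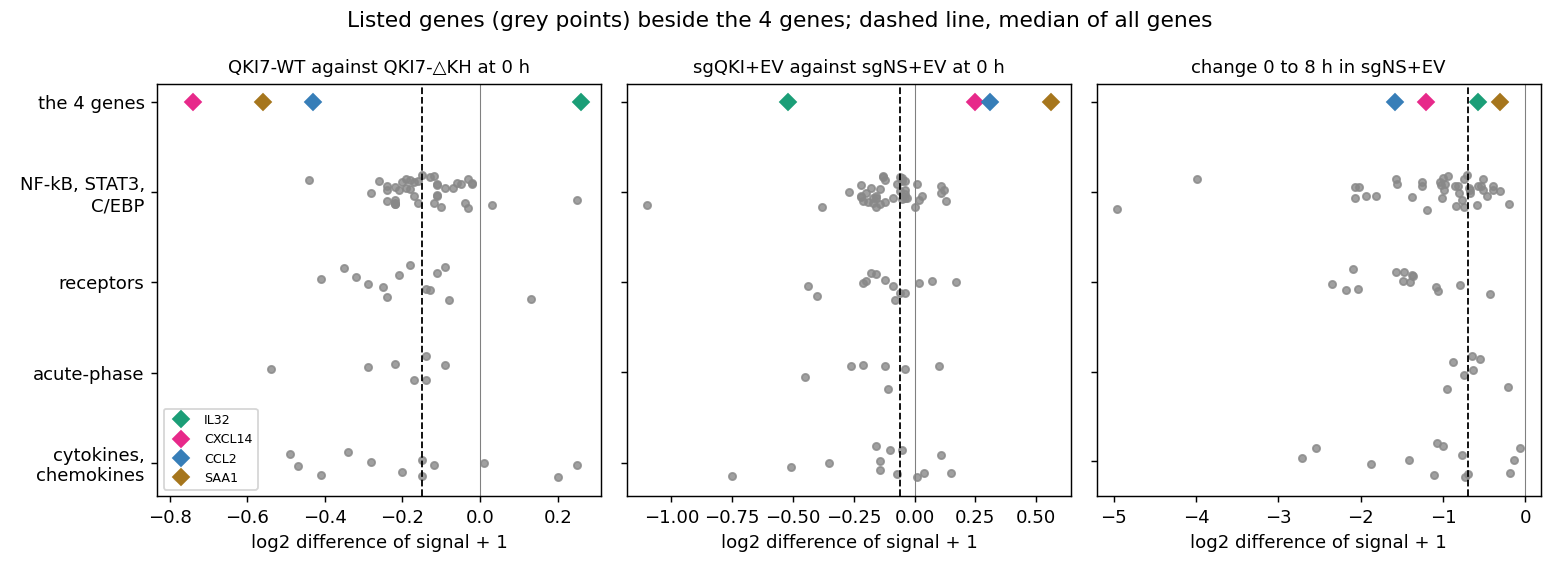
Log2 difference of signal plus 1 for the 4 genes (diamonds) and the measured genes of 4 lists (grey points), for QKI7-WT against QKI7-△KH at 0 h, sgQKI+EV against sgNS+EV at 0 h and the change from 0 to 8 h in sgNS+EV cells; the dashed line is the median of all genes. CXCL14 (−0.74) lies close to the listed CCL26 (−0.78) in the first panel, SAA1 (0.56) and IL32 (−0.52) lie on either side of 0 in the second, and NFKBIA (−4.96) and SOCS3 (−3.99) are the outlying points of the third.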

How the data were processed

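The authors deposited 1 table of 12585 rows and 24 library columns: 12547 genes by symbol and 38 ERCC spike-in rows. Its linear values are a signal, spike-in normalised by the authors, as judged from the near-constant spike-in totals; the unit before that step is not given in the sources used here. STAR, RSEM and GRCh38 are named, with no versions, per the submitters' processing notes. No column was left unused.

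Groups were taken from the sample titles. Log2 of signal plus 1 was fitted with 12 group means over 24 libraries in limma 3.58.1 (R 4.3.3) with a mean-variance trend (12 residual and 9 prior degrees of freedom). P-values are two-sided and adjusted by Benjamini-Hochberg over 12547 genes, with a threshold of 0.05. The fit was tested on simulated data. Other steps used Python 3.11.15, and transcript positions GENCODE 29. The depth is unknown, so precision comes from replicate libraries alone.

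The 4 genes and the gene lists were chosen with earlier results of these data known. Named besides them are QKI, the 3 genes with the highest r to each, and up to 4 called genes per list with the largest change in each of 3 comparisons; 1 result is not reported here. Alternatives were library totals, quantile normalisation, no filter, a smaller pseudocount (0.1), the replicate number as a block, fitting just the groups compared, and leaving out each library.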

Additional observations from a re-analysis of the deposited data

How the results depend on the processing

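The limits are the scaling, 2 libraries per group, and an unknown depth, which leaves no counting error to set beside the low signals of IL32 and SAA1. Library totals moved the all-gene median of sgQKI+EV against sgNS+EV at 0 h to 0.11, from −0.06, and its calls to 1032 genes (930 higher, 102 lower) in place of 195. Quantile normalisation gave 771 (323 higher, 448 lower) and a fit on the compared groups only 1328; with a library left out, 25 to 99 genes passed. Calls for the 8 h decay difference numbered 54 on library totals and 1373 on the compared groups only, in place of 85, and 1 to 11 with a library left out. The causes were not tested.

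In sgQKI+EV against sgNS+EV at 0 h, IL32 ran from −0.68 to −0.37 and SAA1 from 0.47 to 0.65 with a library left out, with the losses given above. CXCL14 passed at 0.43 on library totals, 0.37 after quantile normalisation and 0.25 on the compared groups only, and CCL2 at 0.47, 0.39 and 0.31. For the 8 h change in sgNS+EV cells, IL32 was −0.09 on library totals and 0.33 after quantile normalisation; SAA1 was 0.14 and 0.61, and −0.50 to −0.13 with a library left out. The 8 h decay difference of CXCL14 was 0.02 after quantile normalisation, and that of CCL2 ran from −0.06 (without sgNS+EV replicate 1 at 8 h) to 0.14 with a library left out.

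Further changes of sign under library totals, then quantile normalisation, were as follows. IL32 changed sign over 0 to 8 h in sgQKI+EV (0.24, 0.71), QKI7-△KH (0.12, 0.53) and QKI7-WT cells (0.03, 0.47), and over 0 to 4 h in sgNS+EV (0.10, 0.14) and QKI7-△KH cells (0.16, 0.54). SAA1 did over 0 to 8 h in sgQKI+EV (0.01, 0.48), QKI7-△KH (0.08, 0.41) and QKI7-WT cells (0.03, 0.49), over 0 to 4 h in QKI7-△KH cells (0.04, 0.34), and over 4 to 8 h in QKI7-△KH (0.04, 0.07) and QKI7-WT cells (0.29, 0.43). QKI did over 0 to 4 h in sgNS+EV cells (0.31, 0.34), and there too without replicate 1 at 0 h (0.11) or replicate 2 at 4 h (0.01), in a range of −0.20 to 0.11. SAA1 in QKI7-WT against sgQKI+EV at 4 h was −0.12 and −0.10. Under library totals alone, CXCL14 in QKI7-△KH against sgQKI+EV at 0 h was −0.04 and its 4 h decay difference −0.05. Under quantile normalisation alone, IL32 was 0.15 and CCL2 0.20 in sgQKI+EV against sgNS+EV at 4 h; over 4 to 8 h IL32 was 0.19 in sgNS+EV and 0.06 in QKI7-WT cells and SAA1 0.02 in sgNS+EV cells; SAA1 was 0.06 over 0 to 4 h in QKI7-WT cells and its 4 h decay difference 0.02; and over 8 h in sgNS+EV cells A2M was 0.04, SERPINA3 0.05 and C1R 0.07. Leaving out a library turned IL32 over 0 to 4 h in QKI7-WT cells to −0.01 (replicate 1 at 4 h, range −0.01 to 0.13) and the SAA1 4 h decay difference to 0.02 (sgNS+EV replicate 1 at 4 h, range −0.35 to 0.02).

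The replicate numbers showed no consistent pairing of the libraries. Over 66 pairs of groups the correlation of same-numbered deviations ran from −0.424 to 0.483, and 20 were over 0.1. That spread does not show that no groups were paired. With the replicate block, 218 genes passed in sgQKI+EV against sgNS+EV at 0 h, 11120 in the 8 h change in sgNS+EV cells and 109 in the 8 h decay difference. IL32 passed under the block in sgQKI+EV against sgNS+EV at 8 h (adjusted p = 0.0312), over 0 to 4 h in sgNS+EV cells (0.0396) and in the 4 h decay difference (0.0439). Of 104 member values, 49 stayed the same (direction, side of the threshold or, untested, within the replicate SD) on library totals and 42 after quantile normalisation, where 15 and 22 changed sign. The number was 101 under the block, 104 without the filter, 101 with the pseudocount of 0.1 and 95 on the compared groups only.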
